A study of Danio rerio with 6 samples.

Results

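The vessels of the zebrafish kidney marrow were followed through 10 endothelial and sinusoid genes, and 9 of the 10 could be read from a table of 32057 genes. A gene was taken where its symbol, looked up from its Ensembl identifier with letter case ignored, was on the list, or where the name table carried only the human-style name without the copy letter. Those matched as written were kdrl, tie1, cdh5, clec14a, egfl7, stab1, stab2 and lyve1b, while mrc1a was read from the row named MRC1, since its copy mrc1b has a row of its own. No row carried pecam1, so that gene is not among the 9. All 9 passed the filter on low values, a level of at least 1 TPM in at least 3 libraries, and were tested.

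The adult zebrafish forms its blood in the kidney marrow, which was sequenced whole from 2 genotypes. The heterozygotes carried 1 germline copy of the nz171 allele of rad21a, a nonsense change in exon 8, and the controls were their wild-type siblings from crosses between heterozygous parents. Each genotype had 3 libraries. Marrow of 3 adult fish was pooled for each, so that values are averages over fish and over all cells of the tissue. The sources used here give neither the sex of the fish, nor their age beyond adult, nor whether same-numbered pools shared a clutch. Values are TPM, transcript abundances scaled for gene length and to a fixed library total, so levels of different genes can be compared but read depth is unknown. In bulk tissue, fewer vessel cells and less RNA per vessel cell cannot be told apart.

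In fish, blood stem and progenitor cells lie between the kidney tubules, in a bed of thin-walled vessels called sinusoids. Endothelial cells line these vessels and hold together through VE-cadherin junctions. They respond to VEGF and angiopoietin through receptor kinases, and they supply signals that stem cells need. Sinusoidal and venous endothelium also acts as a filter: scavenger receptors such as the stabilins take up hyaluronan, modified lipoproteins and particles from the blood. In mammals stabilin-1, the mannose receptor and LYVE1 are also made by some macrophages, so those receptors do not mark endothelium alone.

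The mutated gene and the makeup of the libraries come first. rad21a stood at 110.1, 73.9 and 108.2 TPM in wild-type pools 1 to 3, against 67.4, 61.6 and 62.0 TPM in heterozygous pools 1 to 3. The groups did not overlap, as for 9.79% of all tested genes in this direction. The difference in log2(TPM + 1), heterozygous minus wild type, was -0.58 and did not pass the threshold of 0.05 (limma adjusted p = 0.30). Transcripts of blood cells were present in every library, with a summed level of 13730 to 54150 TPM for 11 red cell genes, 16520 to 51700 TPM for 10 neutrophil genes and 757 to 2679 TPM for 9 B cell genes. Kidney tubule genes, 23 in all, summed to 714 to 2332 TPM, and vessels of the kidney proper cannot be told apart from those of the marrow. Some libraries stood apart from the others. For 22 oocyte genes the sum reached 21670 and 6153 TPM in pools 2 and 3 of the wild type, with 5.63 to 355 TPM in the other 4 libraries. Wild-type pool 1, at 355 TPM, was also above the heterozygous pools, at 5.63 to 259 TPM. For 15 interrenal genes the sum was 570 and 835 TPM in heterozygous pools 2 and 3, with 8.91 to 142 TPM elsewhere. The sum of 21 skeletal muscle genes separated by genotype, at 98.2 to 147 TPM in wild-type pools and 20.1 to 38.9 TPM in heterozygous pools. The part of such tissue in the values of the 9 genes was not tested. No list had a gene listed at 0 in all 6 libraries. Differences of the 9 genes without wild-type pools 2 and 3, and without heterozygous pools 2 and 3, are given with the other alternatives.

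The mean TPM over the 6 libraries ran from 32.25 for mrc1a down through clec14a (27.3), lyve1b (22.5), tie1 (16.5), kdrl (16.04), egfl7 (11.4), stab2 (11.3) and stab1 (9.70) to cdh5 (7.20). mrc1a lay above 83.7% of the 16537 tested genes by mean TPM, and cdh5 above 48.9%. The ranges of every pair of neighbours in this order overlapped across libraries. Within each library, though, mrc1a stood above clec14a, clec14a above lyve1b, lyve1b above tie1, kdrl above egfl7 and stab1 above cdh5. The order of tie1 and kdrl, of egfl7 and stab2, and of stab2 and stab1 changed between libraries. The ends of the order did separate, since the lowest level of mrc1a (22.4 TPM) was above the highest of cdh5 (10.8 TPM).

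**Figure D1:**
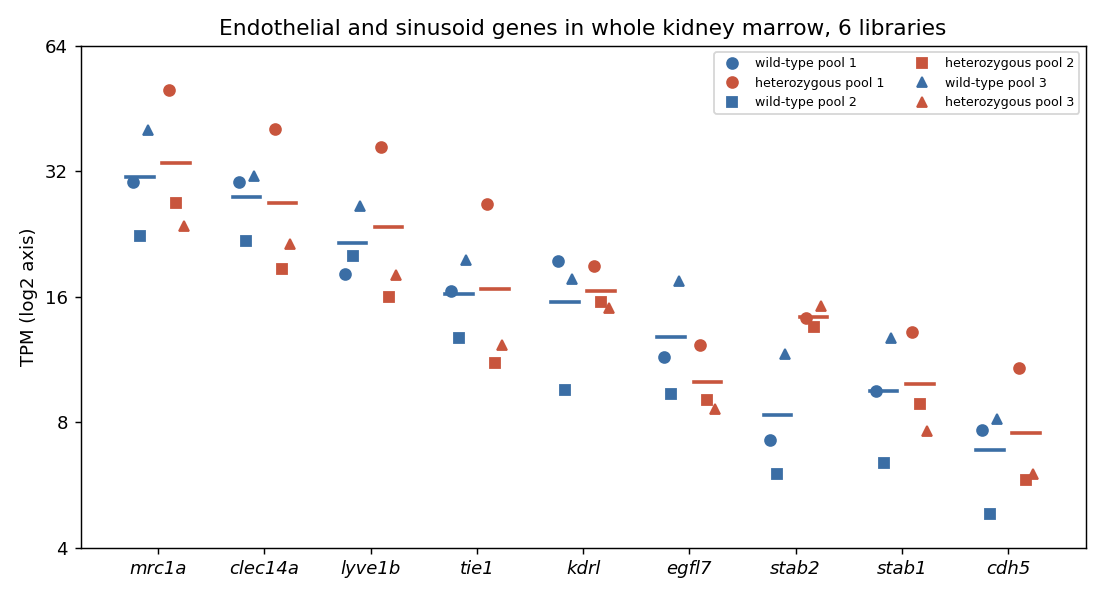
TPM of each of the 9 genes in each library, on a log2 axis, ordered by mean level; blue points are wild-type pools, red points heterozygous pools, and horizontal bars the mean of each genotype. Only stab2 has all 3 heterozygous pools above all 3 wild-type pools, and heterozygous pool 1 is the highest library for 6 of the 9 genes.

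None of the 9 genes passed the threshold between genotypes (0 of 9 at a limma adjusted p under 0.05), against 1.37% of all tested genes. At an unadjusted limma p under 0.05 there was 1 of the 9, stab2, against 15.0% of all tested genes. The median difference, heterozygous minus wild type, was 0.060 on the log2(TPM + 1) scale for the 9 genes and -0.022 for all tested genes, and 6 of the 9 differences were positive, against 48.1% of all tested genes. Apart from stab2, the 95% intervals of the differences lay between -0.98 and 0.92, and the limma adjusted p values between 0.63 and 0.96. With 3 pools a genotype, a change inside a gene's own interval is not excluded for that gene.

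Among the receptor kinases, kdrl encodes the main VEGF receptor of zebrafish vessels. It stood at 19.5, 9.56 and 17.6 TPM in wild-type pools 1 to 3 and at 18.9, 15.6 and 15.1 TPM in heterozygous pools 1 to 3. Wild-type pool 2 was the low library, and the heterozygous values lay inside the wild-type range. The genotype means were 15.5 ± 5.27 and 16.5 ± 2.09 TPM (SD, n = 3 each), with a log2 difference of 0.13 ± 0.30 (SE, limma adjusted p = 0.84).

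tie1 encodes a receptor of the angiopoietin system that acts together with its relative Tek. Its levels were 16.5, 12.7 and 19.6 TPM in wild-type marrow and 26.7, 11.1 and 12.2 TPM in heterozygous marrow. The heterozygotes held both the highest library, pool 1, and the lowest 2, pools 2 and 3. The log2 difference was -0.05, with a 95% interval from -0.92 to 0.82 (limma adjusted p = 0.95), and under quantile normalization it was 0.084.

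cdh5 encodes VE-cadherin, the adhesion molecule of endothelial junctions. Its levels were 7.64, 4.82 and 8.13 TPM in wild-type marrow and 10.8, 5.80 and 6.02 TPM in heterozygous marrow. The groups overlapped, with the highest library in the heterozygotes and the lowest in the wild type. The log2 difference was 0.10, with a 95% interval from -0.64 to 0.84 (limma adjusted p = 0.89).

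clec14a encodes a C-type lectin-like glycoprotein of the endothelial surface. It stood at 30.2, 21.8 and 31.2 TPM in wild-type marrow and at 40.4, 18.7 and 21.4 TPM in heterozygous marrow. As for tie1, heterozygous pool 1 was the highest library and heterozygous pools 2 and 3 were the lowest. The log2 difference was -0.11 (95% interval -0.90 to 0.69, limma adjusted p = 0.89), and it was 0.011 under quantile normalization.

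egfl7 encodes a secreted protein of the vessel matrix that helps endothelial tubes form. Its levels were 11.5, 9.36 and 17.5 TPM in wild-type marrow and 12.3, 9.07 and 8.63 TPM in heterozygous marrow. Wild-type pool 3 stood highest, and the other 5 libraries lay between 8.63 and 12.3 TPM. It had the most negative log2 difference of the 9 genes, -0.30 (95% interval -0.98 to 0.38, limma adjusted p = 0.63), which was -0.065 without wild-type pool 3. In the RefSeq gene table for the assembly GRCz12tu a microRNA gene, mir126b, lies within egfl7. The rows named for that microRNA family, mir126a and MIR126, were listed at 0 in all 6 libraries. Whether these libraries could detect a microRNA was not tested, so the 0 values do not show its absence.

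The missing junction gene could be looked at through its copies, which were chosen after their values were seen. The name table holds pecam1a and pecam1b, and the RefSeq gene table gives pecam1 as another name of pecam1a. PECAM1 is an adhesion protein of endothelial cell borders, found in mammals on platelets and leukocytes as well. pecam1a stood at 4.65, 2.42 and 3.82 TPM in wild-type marrow and 4.91, 2.55 and 2.65 TPM in heterozygous marrow, with overlap. pecam1b stood at 3.23, 3.27 and 2.94 TPM and at 5.42, 3.58 and 2.93 TPM. Neither passed the threshold (log2 differences -0.09 and 0.23, limma adjusted p = 0.89 and 0.65).

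**Figure D2:**
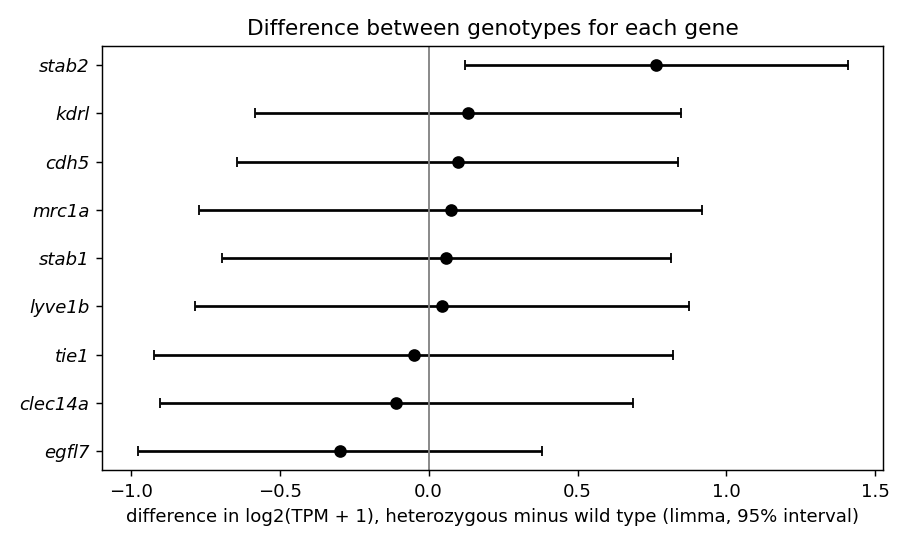
Difference in log2(TPM + 1) between heterozygous and wild-type marrow for each of the 9 genes (points, limma estimates; bars, 95% intervals). The interval of stab2 runs from 0.12 to 1.41 and does not cross 0, while the other 8 do, and none of the 9 passes the threshold after adjustment over all tested genes.

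Of the scavenger receptors, stab2 encodes stabilin-2, the receptor that clears hyaluronan from the blood. It stood at 7.26, 6.003 and 11.7 TPM in wild-type pools 1 to 3 and at 14.3, 13.5 and 15.2 TPM in heterozygous pools 1 to 3. All 3 heterozygous pools lay above all 3 wild-type pools, and they lay close together. Groups that do not overlap in this direction made up 11.9% of all tested genes, and 9.79% did not overlap in the other direction, so 1 of 9 is near the background.

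The genotype means of stab2 were 8.31 ± 2.98 and 14.3 ± 0.847 TPM (SD, n = 3 each), a ratio of 1.72. The log2 difference was 0.76 ± 0.27 (SE), with a 95% interval from 0.12 to 1.41. After adjustment over all genes it was not past the threshold (limma adjusted p = 0.27, and 0.026 before adjustment). A two-sided exact permutation test returned p = 0.1, which is the smallest value for 3 pools against 3. The difference was 0.89 without the pair of wild-type pools high in oocyte genes, 2 and 3, and 0.76 without heterozygous pools 2 and 3, which held the interrenal transcripts (limma adjusted p = 0.23 and 0.88). In those fits the lone library of a genotype is assumed to vary like the others.

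stab1 encodes stabilin-1, the paralog of stab2. Its levels were 9.50, 6.37 and 12.7 TPM in wild-type marrow and 13.2, 8.83 and 7.62 TPM in heterozygous marrow. The groups overlapped, and its log2 difference was 0.06 (95% interval -0.69 to 0.81, limma adjusted p = 0.94). The ratio of stab2 to stab1 TPM, computed after the values were seen and given without a test, was 0.764, 0.943 and 0.919 in wild-type pools and 1.08, 1.53 and 1.998 in heterozygous pools. The ratio of stab2 to cdh5 was 0.949, 1.25 and 1.44 in wild-type pools and 1.33, 2.33 and 2.53 in heterozygous pools, and the groups overlapped there because of heterozygous pool 1.

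lyve1b encodes a hyaluronan-binding receptor of zebrafish veins and lymphatics. It stood at 18.1, 20.1 and 26.5 TPM in wild-type marrow and at 36.5, 15.97 and 18.1 TPM in heterozygous marrow. Heterozygous pool 1 was again the highest library and the other 2 heterozygous pools were the lowest. The log2 difference was 0.04 (95% interval -0.78 to 0.87, limma adjusted p = 0.96).

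mrc1a, read from the row named MRC1, encodes a mannose receptor that also marks veins and lymphatics in zebrafish. Its levels were 30.2, 22.4 and 40.2 TPM in wild-type marrow and 50.1, 26.8 and 23.7 TPM in heterozygous marrow. The groups overlapped, and the log2 difference was 0.07 (95% interval -0.77 to 0.92, limma adjusted p = 0.93). The whole macrophage list, 21 genes with none at 0 in all libraries, summed to 1421 to 1983 TPM in wild-type marrow and 1863 to 2314 TPM in heterozygous marrow. Of its 17 tested genes 2 rose, both rows named MFAP4 and singled out after their values were seen, and 0 fell at a limma adjusted p under 0.05, with 6 at an unadjusted limma p under 0.05. Of all tested genes, 0.81% rose, 0.562% fell and 15.0% had an unadjusted limma p under 0.05. Groups did not overlap for 5 higher and 1 lower of the 17, against 11.9% and 9.79% of all tested genes. The median log2 difference of the 17 was -0.012, against -0.022 for all tested genes. What macrophages add to the scavenger receptor values was not tested.

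Across libraries, each gene's highest library was 2.03 to 2.53 times its lowest, while the ratio of the genotype means, heterozygous over wild type, ran from 0.782 for egfl7 to 1.72 for stab2. Heterozygous pool 1 was the highest library for 6 of the 9 genes, against 23.5% of all tested genes, and wild-type pool 2 was the lowest for 5 of the 9, against 28.9%. The summed TPM of the 9 genes was 150, 113 and 185 in wild-type pools 1 to 3 and 223, 125 and 128 in heterozygous pools 1 to 3. Over the 6 libraries, the 28 pairs that leave out stab2 had a median Pearson r of 0.81 on the log2(TPM + 1) scale, from 0.33 for kdrl and lyve1b to 0.98 for tie1 and clec14a. The 8 pairs with stab2, set apart after its values were seen, had a median r of 0.31, from 0.031 to 0.48. These are descriptions over 6 libraries that share their totals.

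**Figure D3:**
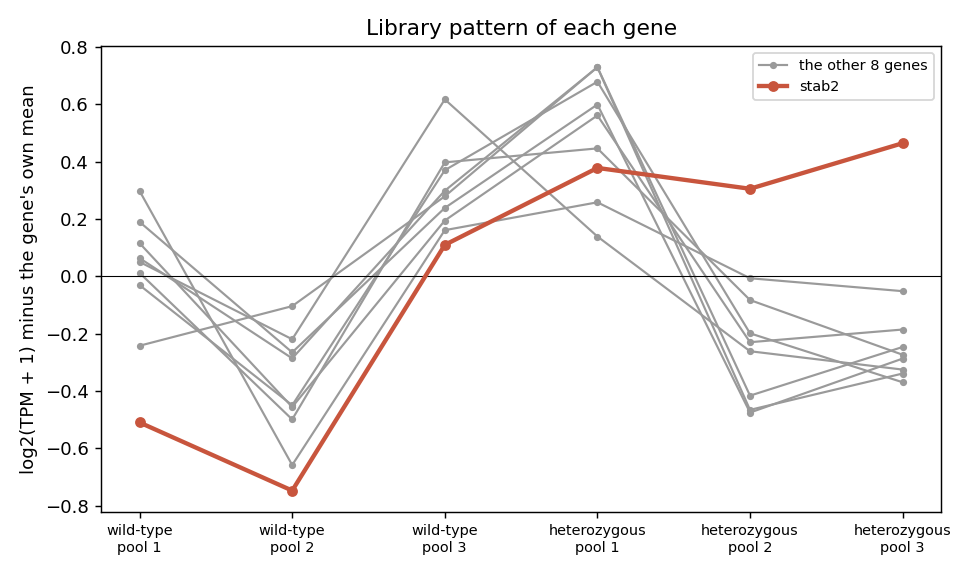
log2(TPM + 1) of each gene minus that gene's mean over the 6 libraries, by library; the red line is stab2 and grey lines are the other 8 genes, and lines join the libraries of a gene only to make it traceable. All 9 lines are above 0 in heterozygous pool 1; in heterozygous pools 2 and 3 the grey lines are below 0 and stab2 is above it.

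Some other cell types moved with the same libraries and some did not. In heterozygous pool 1, the highest library for most of the 9 genes, neutrophil genes summed to 51700 TPM against 16520 to 24600 TPM elsewhere, and B cell genes to 2679 TPM against 757 to 1135 TPM. Stem and progenitor genes summed to 250 TPM in heterozygous pool 1 and 118 TPM in wild-type pool 2, against 165 to 186 TPM elsewhere. That list shares several genes, tal1, lmo2 and ERG among them, with the endothelial transcription factor list, so it does not stand for blood cells alone. Red cell genes summed to 14230 TPM in heterozygous pool 1 and 13730 TPM in wild-type pool 2, against 26260 to 54150 TPM elsewhere. Heterozygous pool 1 was highest for 0 of 10 tested red cell genes and 2 of 20 tested kidney tubule genes. Wild-type pool 2 was lowest for 9 of the 10 and for 17 of the 20. In wild-type pool 2 the thrombocyte list was lowest, at 65.3 TPM against 122 to 150 TPM. The mural and stromal list, genes of the cells around vessels, summed to 655 TPM in heterozygous pool 1 and to 284 to 488 TPM elsewhere, but 541 TPM of the 655 came from 1 gene, TAGLN (ENSDARG00000033466), named after its values were seen. Of its 15 tested genes 3 were highest in heterozygous pool 1 and 3 lowest in wild-type pool 2, and 12 had a negative log2 difference, with a median of -0.40. The part of these cell types in the values of the 9 genes was not tested. With globin, mitochondrial and oocyte genes removed and the rest rescaled, each of the 9 differences kept its sign, and that of stab2 was 0.76. Only the listed genes were taken out, so this fit cannot show what other transcripts of the same cells add.

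**Figure D4:**
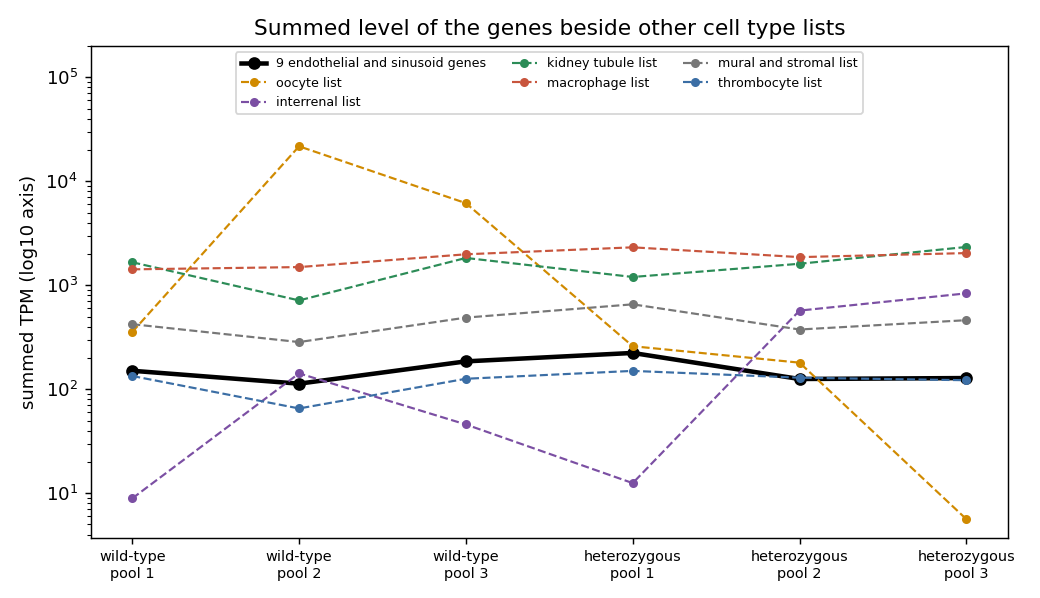
Summed TPM of the 9 genes (black) and of 6 lists of other cell types in each library, on a log10 axis. The oocyte list peaks in wild-type pools 2 and 3 and the interrenal list in heterozygous pools 2 and 3. The 9 genes run from 113 TPM in wild-type pool 2, where the oocyte list is highest, to 223 TPM in heterozygous pool 1.

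The relation between scavenger receptors and the other endothelial genes was described within each library. The mean log2(TPM + 1) of stab1, stab2, lyve1b and mrc1a minus that of kdrl, cdh5, tie1, egfl7 and clec14a was -0.12, 0.14 and 0.20 in wild-type pools and 0.31, 0.40 and 0.34 in heterozygous pools. The groups did not overlap with stab2 included. With stab2 left out of the scavenger receptors the values were 0.17, 0.42 and 0.44 in wild-type pools and 0.56, 0.45 and 0.34 in heterozygous pools, which overlapped. The level of stab2 less the mean of the other 8 genes was -1.06, -0.87 and -0.70 in the wild type and -0.63, 0.082 and 0.23 in the heterozygotes. No test was run on these scores, and those that single out stab2 were chosen after its values were seen.

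The wider endothelial program was read from 8 lists with 122 symbols, of which 116 matched 117 genes and 96 were tested. The 96 include the 9 genes, and counts of single lists below also include those of the 9 that are on them. Some genes are on several lists, so counts of single lists overlap. At a limma adjusted p under 0.05, 1 of the 96 rose and 0 fell. Of all tested genes, 0.81% rose and 0.562% fell. An unadjusted limma p under 0.05 was reached by 7 of the 96, against 15.0% of all tested genes. Groups did not overlap for 6 higher and 2 lower of the 96, against 11.9% and 9.79% of all tested genes. The median log2 difference of the 96 was 0.069, and 64 (66.7%) were positive. For all tested genes the median was -0.022, and 48.1% were positive. With the 9 genes left out, 87 were tested, of which 1 rose, 0 fell and 6 had an unadjusted limma p under 0.05. Groups did not overlap for 5 higher and 2 lower of the 87. Their median log2 difference was 0.082, and 58 (66.7%) were positive.

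CD36 was the gene that rose, a member of the scavenger and sinusoid list. It encodes a receptor for fatty acids and oxidised lipoproteins, found in mammals on small-vessel endothelium, macrophages, platelets and fat cells. Its level was 0.192, 0.239 and 0.557 TPM in wild-type marrow and 8.71, 5.67 and 12.2 TPM in heterozygous marrow. The groups were far apart, with every wild-type pool below 1 TPM. The means were 0.330 ± 0.199 and 8.86 ± 3.28 TPM (SD, n = 3 each), a ratio of 26.9, and the log2 difference was 2.85 ± 0.29 (SE, limma adjusted p = 0.0087). CD36 passed the filter on low values through the heterozygous pools alone, and without that filter the limma adjusted p was 0.041. The limma adjusted p was 0.14 without wild-type pools 2 and 3 and 0.075 without heterozygous pools 2 and 3, with differences of 2.99 and 2.88.

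The other genes of that list that the naming rule gave were EHD3, an endocytic recycling protein, and lyve1a, the copy of lyve1b. EHD3 stood at 0.767, 0.627 and 1.05 TPM in wild-type marrow and 1.71, 2.15 and 3.05 TPM in heterozygous marrow. lyve1a stood at 1.46, 1.57 and 2.66 TPM and at 0.413, 1.17 and 0.760 TPM. The groups did not overlap for either, higher for EHD3 and lower for lyve1a, but neither passed (log2 differences 0.85 and -0.70, limma adjusted p = 0.15 and 0.26). Groups did not overlap for 11.9% (higher) and 9.79% (lower) of all tested genes, and both genes were named for a low p. Each fell below 1 TPM in libraries of its lower group and passed the filter on low values only with its higher group. The groups of lyve1b, unlike those of lyve1a, overlapped, but that difference was not tested. In the list as a whole 10 of 14 tested genes were positive, with a median of 0.067.

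**Figure D5:**
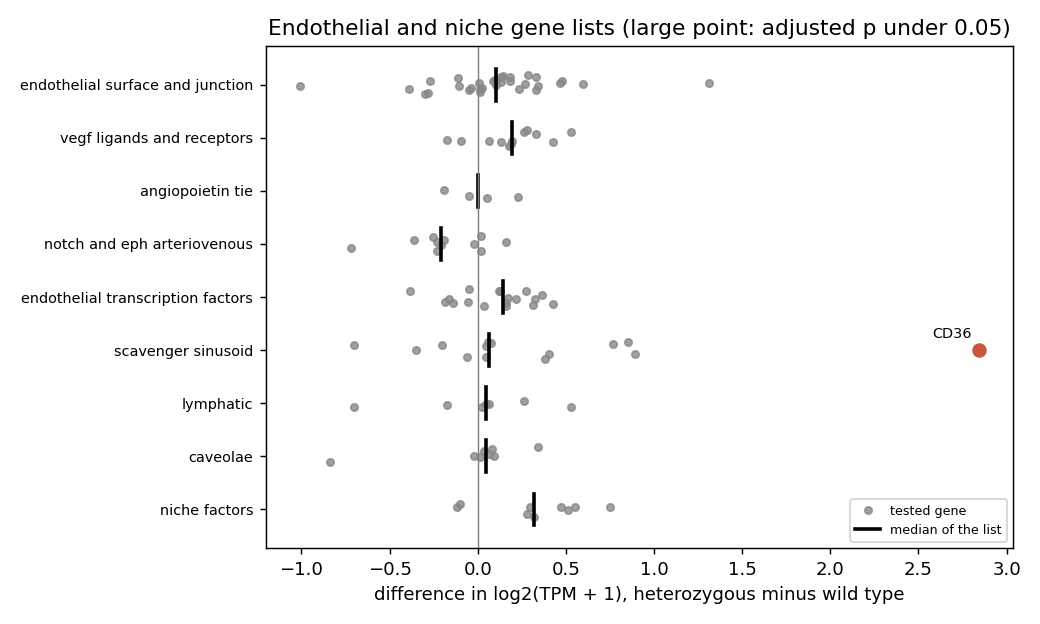
Difference in log2(TPM + 1), heterozygous minus wild type, for each tested gene of 8 endothelial lists and 1 list of niche factors; black bars are list medians and the large red point is the gene past the threshold. CD36, at 2.85, lies farthest from 0 of the genes shown.

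Genes of the VEGF system were mostly positive but none passed. VEGF receptors other than kdrl were low: KDR stood at 1.61 ± 0.615 and 2.46 ± 0.520 TPM, flt1, a decoy receptor for VEGF-A, at 2.66 ± 1.16 and 3.47 ± 0.732 TPM. FLT4, the VEGF-C receptor of veins and lymphatics, stood at 3.52, 2.003 and 3.69 TPM in wild-type marrow and 5.59, 4.79 and 3.99 TPM in heterozygous marrow. Its groups did not overlap, as for 11.9% of all tested genes in this direction. The log2 difference of FLT4 was 0.53 (95% interval -0.07 to 1.13, limma adjusted p = 0.39). The co-receptors NRP1, nrp1b and NRP2 (ENSDARG00000038446) had log2 differences of 0.19, -0.09 and 0.06.

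Of the ligands, the 2 genes named VEGFA stood at 11.2 ± 3.39 and 13.4 ± 2.31 TPM (ENSDARG00000034700) and at 7.25 ± 2.47 and 8.28 ± 2.05 TPM (ENSDARG00000103542). VEGFC, vegfba and VEGFD had log2 differences of 0.27, 0.18 and -0.18. In all, 10 of 12 tested genes of this list were positive, with a median of 0.19, and wild-type pool 2 was the lowest library for 11 of the 12. That pool also had the lowest sums of tubule and thrombocyte genes.

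In the angiopoietin and Tie system 4 genes were tested, and none passed. ANGPT1, the activating ligand, stood at 1.23 ± 0.372 TPM in wild-type marrow and 1.69 ± 0.924 TPM in heterozygous marrow. tek, the receptor it binds, stood at 4.999 ± 0.815 and 4.27 ± 0.984 TPM. ptprb, the phosphatase that restrains Tek, stood at 5.27 ± 2.23 and 5.47 ± 2.16 TPM. Their log2 differences were 0.23, -0.19 and 0.05, all with overlap between the groups.

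Of 31 tested endothelial surface and junction genes, 22 were positive and none passed. tmem88b, of a family of membrane proteins that dampen Wnt signalling, had groups without overlap, as for 9.79% of all tested genes in this direction. It stood at 3.65 ± 1.104 TPM in wild-type marrow and 1.28 ± 0.327 TPM in heterozygous marrow (log2 difference -1.01, limma adjusted p = 0.13). SELE (ENSDARG00000042138), which carries the name of the endothelial selectin, stood at 6.32, 7.12 and 11.3 TPM and at 30.4, 16.3 and 19.6 TPM (log2 difference 1.31, limma adjusted p = 0.14). A separate row named sele overlapped, at 47.7, 24.8 and 73.4 TPM and 60.3, 40.8 and 44.2 TPM, and the sources used here do not say how reads were shared between these rows. myct1b, named after a myc target, had a log2 difference of 0.48.

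Arterial and venous identity genes were the 1 endothelial list with a negative median, -0.21, with 8 of 11 tested genes negative and none past the threshold. jag2b and jag1b, Notch ligands, had log2 differences of -0.72 and -0.25, and ephb4a, a receptor of venous endothelium, -0.36 (limma adjusted p = 0.41, 0.57 and 0.59). jag2b was highest in wild-type pools 2 and 3, at 8.68 and 4.98 TPM, the pools with the oocyte transcripts, against 2.23 to 3.57 TPM in the other 4 libraries. The part of oocyte RNA in that gene was not tested.

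Transcription factors of endothelium gave 12 positive of 18 tested, with a median of 0.14 and none past the threshold. klf2a, which responds to blood flow, stood at 19.4 ± 3.52 and 26.7 ± 5.95 TPM (log2 difference 0.43), MEF2C (ENSDARG00000029764) had a log2 difference of 0.36, and ERG, which keeps endothelial genes on, -0.38. Several factors of this list also act in blood stem and progenitor cells. The lymphatic list had 5 of 7 tested genes positive and the caveolae list 6 of 8, against 48.1% of all tested genes. The lymphatic list shares genes such as FLT4, VEGFC and lyve1a with lists above, so its count is not separate from theirs. In the caveolae list, EHD2 (ENSDARG00000035137), a membrane-bending protein of caveolae, had the smallest unadjusted p, with a log2 difference of -0.84 (limma adjusted p = 0.28). PACSIN2 and CAV2 had log2 differences of 0.34 and 0.09.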

How the data were processed

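Per the labels' protocols, total RNA of whole kidney marrow was extracted with a NucleoSpin kit and made into TruSeq libraries. Per the submitters' processing notes, the tools were FastQC, HISAT2 2.0.4 and featureCounts, and the build GRCz11. The deposited values are TPM, made by the authors, which sum to 1000000 in each of 6 libraries. The sources used here do not give the annotation, gene lengths or strand setting, so reads of overlapping genes may be mixed. TPM keeps no depth, so no counting interval was computed. Symbols were found for 28988 of 32057 identifiers.

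All genes with at least 1 TPM in at least 3 libraries (16537) were fitted in R 4.3.3 with limma 3.58.1, on log2(TPM + 1) values, genotype as the only term, variances moderated with a mean trend, two-sided p-values adjusted by Benjamini-Hochberg, threshold 0.05. Fold changes on this scale understate changes of low genes. The steps were tested on simulated data. Labels name separate pools, so p-values measure the spread between pools.

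The genes, lists and tests were chosen with earlier results of these data known. Named were the 9 genes, every tested VEGF and angiopoietin gene, and up to 3 genes per other endothelial or niche list of lowest p. Also named were the 3 genes closest to cdh5 and to stab2, among tested genes with a gene-like symbol. List symbols matched as the 9 genes did. Alternatives covered pseudocounts of 0.1 and 0.01, no filter, median-ratio and quantile scaling, removal of globin, mitochondrial and oocyte genes, no variance trend, weights per library, the replicate number as a block, and leaving out libraries with the gene set kept. Motif and protein features were not analysed here.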

Additional observations from a re-analysis of the deposited data

How the results depend on the processing

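Of the 9 genes, 0 passed under every alternative except weights per library. That fit failed to converge, and in it the median difference of all tested genes was -0.16. There 5 of the 9 passed, all lower (tie1, clec14a, egfl7, stab1 and mrc1a), with 30 endothelial list genes and 7397 genes in all. stab2 kept a positive sign in all 17 alternatives (0.29 with weights, 0.58 to 1.01 in the others) and egfl7 a negative one. The remaining 7 turned sign under some. With weights the differences were -0.16 for kdrl, -0.31 for cdh5, -0.52 for stab1, -0.47 for lyve1b and -0.55 for mrc1a. Under quantile normalization they were 0.084 for tie1 and 0.011 for clec14a. Without wild-type pools 2 and 3 they were -0.23 for kdrl, -0.089 for tie1, -0.067 for cdh5, -0.24 for clec14a, -0.20 for egfl7, 0.018 for stab1, 0.26 for lyve1b and 0.068 for mrc1a. Without heterozygous pools 2 and 3 they were 0.32 for kdrl, 0.70 for tie1, 0.61 for cdh5, 0.54 for clec14a, -0.010 for egfl7, 0.48 for stab1, 0.75 for lyve1b and 0.72 for mrc1a, none past the threshold. The cause was not tested. Leaving out 1 library at a time gave -0.16 to 0.32 for kdrl, -0.43 to 0.17 for tie1, -0.16 to 0.24 for cdh5, -0.44 to 0.10 for clec14a, -0.48 to -0.065 for egfl7, -0.17 to 0.27 for stab1, -0.31 to 0.26 for lyve1b and -0.25 to 0.28 for mrc1a. The count over all genes was 227, and 132 without the filter, 53 without wild-type pools 2 and 3 and 29 without heterozygous pools 2 and 3. Leaving out 1 library gave 90 to 1088: 1088, 144 and 91 without wild-type pools 1, 2 and 3, and 127, 126 and 90 without heterozygous pools 1, 2 and 3. The CD36 call, the 1 of the endothelial lists, held without any 1 library (2.61 to 3.10, limma adjusted p 0.015 to 0.041) and was lost without either pair of libraries named above, where 0 endothelial list genes passed. Its difference was 4.41 and 4.79 with pseudocounts of 0.1 and 0.01. With the replicate number as a block the CD36 difference stayed at 2.85 and the call was lost (limma adjusted p = 0.054), 0 endothelial list genes passed and 25 genes in all. Deviations from the genotype mean had r of -0.27, 0.12 and -0.13 between same-numbered pools. With 3 pools a genotype, these r cannot decide whether same-numbered pools shared a clutch or a day. The block was kept out of the main fit because the labels do not say that the numbers pair the pools.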

Other observations

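Factors with which vessels and stroma support blood cells were read from a list of 17 genes, 9 of them tested. None passed the threshold in limma (0 with an unadjusted p under 0.05), 7 were positive with a median log2 difference of 0.32, and heterozygous pool 1 was the highest library for all 9. Of all tested genes, 1.37% passed and 15.0% had an unadjusted limma p under 0.05. By sign, 48.1% of all tested genes were positive, and 23.5% were highest in heterozygous pool 1. CXCL12, the chemokine that holds stem cells in the marrow, had 528, 373 and 713 TPM in wild-type pools 1 to 3 and 1192, 568 and 600 TPM in heterozygous pools 1 to 3, with overlap. csf1b, a macrophage growth factor, had 12.9, 7.27 and 8.999 TPM and 15.3, 13.2 and 14.6 TPM, without overlap (log2 difference 0.55, limma adjusted p = 0.37). Groups did not overlap in this direction for 11.9% of all tested genes. tgfb1b, a TGF-beta ligand, had 39.0, 42.3 and 58.2 TPM and 131, 58.0 and 61.7 TPM, with overlap.

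Among tested genes with a gene-like symbol, the 9 genes left out, those closest to cdh5 over the 6 libraries were PLXDC2, sh3bp2 and SSPN. Their Pearson r with cdh5 was 0.996, 0.995 and 0.994 on the log2(TPM + 1) scale. Closest to stab2 were SLC16A9, SVBP and fcsk, with r of 0.995, 0.994 and 0.993. Tested genes without such a symbol were not ranked, so these need not be the highest of all 16537. They are given as a description over 6 points.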
